A study of Homo sapiens with 40 samples.

Results

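Nuclear-encoded complex I subunits are the genes described here. They were taken from the deposited count table as all protein-coding genes whose symbol starts with NDUFA, NDUFB, NDUFC, NDUFS or NDUFV, without the NDUFAF assembly factors, with symbols from GENCODE 44. The rule gave 40 genes of 58395 in the table, and 39 of them entered the tests. The exception was NDUFC2-KCTD14, a read-through of neighbouring genes, with 0 counts in all 40 libraries. The rule used names and gene types only, no measured value, but was set with earlier results of these data known.

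The libraries came from HEK293A, an adherent human embryonic kidney cell line. Wild-type (WT) cells were set against PARP1-KO cells, which are 1 clone (1A3) with a homozygous CRISPR/Cas9 deletion in PARP1 that includes exons 3 to 5. Both lines were grown in DMEM/F12 and were left without treatment, given 0.1% DMSO (the solvent), topotecan (Tpc, a topoisomerase 1 poison), OL9-119 (an inhibitor of the DNA repair enzyme TDP1), or Tpc with OL9-119, for 5 to 5.5 h. All 3 drug groups also held 0.1% DMSO, so a drug group set against untreated cells differs from them in the solvent too. OL9-119 was used at 5 µM in both lines, whereas Tpc was used at 100 nM in WT and at 50 nM in PARP1-KO cells, so genotype and Tpc dose cannot be told apart in any comparison of the lines under Tpc. Each of the 10 groups had 4 libraries. The labels call them biological replicates and a passage of the study's methods calls them technical, so the p-values measure the spread between these libraries, which may be technical.

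Complex I, NADH:ubiquinone oxidoreductase, is the entry point of electrons from NADH into the respiratory chain of the mitochondrial inner membrane. Its peripheral arm oxidises NADH and passes the electrons through flavin and iron-sulfur clusters to ubiquinone, and its membrane arm pumps protons. The hydrophobic core of the membrane arm is encoded in mitochondrial DNA (the MT-ND genes), and the remaining core subunits and all accessory subunits are encoded in the nucleus. Nuclear genes of respiratory subunits are often under promoters without a TATA box that bind NRF1, ETS-family factors, YY1 and SP1.

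The stretch just before the RefSeq start site is shown for NDUFA8, NDUFC1 and NDUFS6, members that were lower in the clone (below) and whose stretch holds no annotated exon. Build GRCh38.p14 was used, each is written 5′ to 3′ on the gene's own strand, and capitals mark matches to the motifs searched. NDUFA8 (chr9:122159780-122159907, minus strand) begins, as written, next to the first exon of the divergent gene MORN5 and ends just before the NDUFA8 start site. NDUFC1 (chr4:139302552-139302701, minus strand) is given over 150 bases. NDUFS6 (chr5:1801367-1801406, plus strand) has 40 bases between its start and the first exon of the divergent gene MRPL36, a mitochondrial ribosomal protein gene.
NDUFA8: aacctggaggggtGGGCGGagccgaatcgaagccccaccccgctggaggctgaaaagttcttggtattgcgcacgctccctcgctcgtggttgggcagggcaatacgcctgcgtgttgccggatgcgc
NDUFC1: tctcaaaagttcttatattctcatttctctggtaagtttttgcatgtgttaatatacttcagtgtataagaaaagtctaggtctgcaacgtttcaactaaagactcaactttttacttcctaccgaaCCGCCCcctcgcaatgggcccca
NDUFS6: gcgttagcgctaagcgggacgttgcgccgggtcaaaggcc

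The marked match in NDUFA8 and NDUFC1 is the GC box GGGCGG, read on either strand, and the NDUFS6 stretch holds no match to these letters. RefSeq gave a promoter of 300 bases (250 before and 50 after the start) for 33 of the 40 members. The GC box was in 63.6% of them and in 44.6% of all 27305 promoters. The NRF1 motif was in 6 of the 33 (18.2% against 6.28% of all promoters), in NDUFA3, NDUFA8, NDUFA9, NDUFA11, NDUFA12 and NDUFB4. The YY1 motif AAGATGGCG was in 5 (15.2% against 1.85%), the ETS motif CCGGAAG in 5 (15.2% against 10.7%), and the cAMP response element TGACGTCA in NDUFA10 and NDUFB2 (6.06% against 1.98%). The ESRRA motif TCAAGGTCA was in 0 of the 33 and in 0.359% of all promoters. Both strands were searched, the motifs can share bases, and a match is a description of the letters only.

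Library totals ran from 3455043 to 20379777 counts. PARP1 was at 737 to 887 CPM (counts scaled by library size and TMM factors, the scale of all levels below unless stated) in the 20 WT libraries and at 30.4 to 46.6 CPM in the 20 PARP1-KO libraries (no treatment, exact two-sided permutation test of 4 against 4, p = 0.0286, the smallest that this design allows). All 9 HEK293 markers reached 1 CPM in at least 1 library (summed 1797 to 2501 CPM in WT and 1915 to 2372 CPM in PARP1-KO libraries, unscaled). KRT8, VIM, KRT18 and NEFL had the highest medians of the 9. The sums were at most 46.6 CPM for the 4 fibroblast markers, 5.32 for the 4 leukocyte, 2.67 for the 2 endothelial and 1.18 for the 2 liver markers. Of these lists, 2 fibroblast, 1 leukocyte, 2 endothelial and 1 liver marker also reached 1 CPM in at least 1 library.

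The levels of the subunit genes were compared per kb of canonical transcript, as mean CPM per kb in untreated WT cells. In the NADH dehydrogenase core, NDUFV1, which carries the flavin, was highest at 123.2 and NDUFV2, an iron-sulfur subunit, was lowest at 0.571. In the quinone core, NDUFS8 was highest at 139 and NDUFS7 lowest at 47.7. Among the 9 accessory subunits of the peripheral arm, the level went from 340 for NDUFS6 to 1.33 for NDUFA7. Among the 9 of the proximal membrane arm it went from 258.9 for NDUFS5 to 1 for NDUFA13, with NDUFA1 at 126.1. In the distal membrane arm, all 11 NDUFB genes lay between 338 for NDUFB11 and 17.2 for NDUFB5. NDUFAB1, the mitochondrial acyl carrier protein, was at 110, and NDUFA4, which is now counted as a subunit of complex IV, at 73.9.

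Very low values of NDUFV2, NDUFA7 and NDUFA13 (0 to 54 counts in any library) coincided with annotation overlap. Of their canonical transcripts, 90.0%, 77.9% and 83.9% are shared on the same strand with another annotated gene, and reads that lie in more than 1 gene are not counted by STAR. NDUFB8 (72.0% shared, 18 to 256 counts) and NDUFA11 (68.2% shared, 27 to 231 counts) were also low. These 5 levels are therefore uncertain. NDUFA4L2, the low-oxygen-responsive paralogue of NDUFA4, had 0 to 66 counts without such an overlap. The libraries were made with a directional kit, but the strand counted is not given in the sources used here. If strand was ignored in counting, reads in a stretch opposite another gene would also go uncounted. This concerns NDUFS7 (51.3% of its transcript lies opposite another gene), NDUFA2 (27.4%), NDUFB2 (24.3%), NDUFB9 (23.9%), NDUFA3 (15.9%) and NDUFS1 (12.1%).

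The question of the first comparison was which subunit genes differed between PARP1-KO and WT cells. In untreated cells, 12 of 39 members were lower in the clone and 0 were higher (edgeR quasi-likelihood test, Benjamini-Hochberg adjusted p < 0.01 over 28922 genes), where 5.74% of all genes tested were lower and 5.97% higher. The median log2 fold change of the members was -0.33, against 0.17 over all genes, and 34 of 39 members were below 0. In bulk RNA, fewer cells of a kind and less RNA per cell cannot be told apart, and a share of all counts falls also when other genes rise. The lower members came from every arm: NDUFV1 in the NADH dehydrogenase core, NDUFS3 and NDUFS8 in the quinone core, NDUFS6 in the peripheral arm, NDUFA3, NDUFA8, NDUFC1 and NDUFC2 in the proximal and NDUFB2, NDUFB5 and NDUFB8 in the distal membrane arm, and NDUFA4.

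NDUFV1, the subunit that binds NADH and flavin, measured 254, 201, 157 and 157 CPM in the untreated WT libraries and 77.3, 110, 101.7 and 95.9 CPM in the untreated PARP1-KO libraries. The groups did not overlap, and the log2 fold change was -1.0 ± 0.15 (SE, adjusted p = 1.08e-06). NDUFV1 was the only one of the 39 with all 20 PARP1-KO libraries (62.3 to 110 CPM) below all 20 WT libraries (145 to 254 CPM; the same held for 1.56% of all genes tested), and the only one that was lower in all 5 treatments. Its log2 fold change was -1.05 under DMSO, -0.99 under Tpc, -1.12 under OL9-119 and -0.77 under Tpc with OL9-119 (adjusted p = 0.000225).

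NDUFA8, an accessory subunit that sits on the intermembrane-space side, measured 116.7, 87.5, 74.1 and 69.8 CPM in untreated WT and 31.7, 46.7, 46.5 and 41.1 CPM in untreated PARP1-KO libraries, a log2 fold change of -1.06 ± 0.16 (SE, adjusted p = 1.24e-06). NDUFC1, a small membrane-arm subunit, went from 45.2, 30.1, 33 and 37.8 CPM to 14.6, 18, 21.2 and 15.9 CPM (log2 fold change -1.06 ± 0.21, adjusted p = 8.15e-05). NDUFA4 measured 158.1, 124.95, 200.5 and 118.0 CPM in WT against 82.8, 73.1, 67.6 and 73.9 CPM in the clone (log2 fold change -1.02 ± 0.14, adjusted p = 6.14e-08). For these genes too, every PARP1-KO library was below every WT library, which was so for 11 of the 39 members and 8.37% of all genes tested. NDUFA4, NDUFA8 and NDUFC1 were lower in 4 of the 5 treatments, as was NDUFS8.

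**Figure D1:**
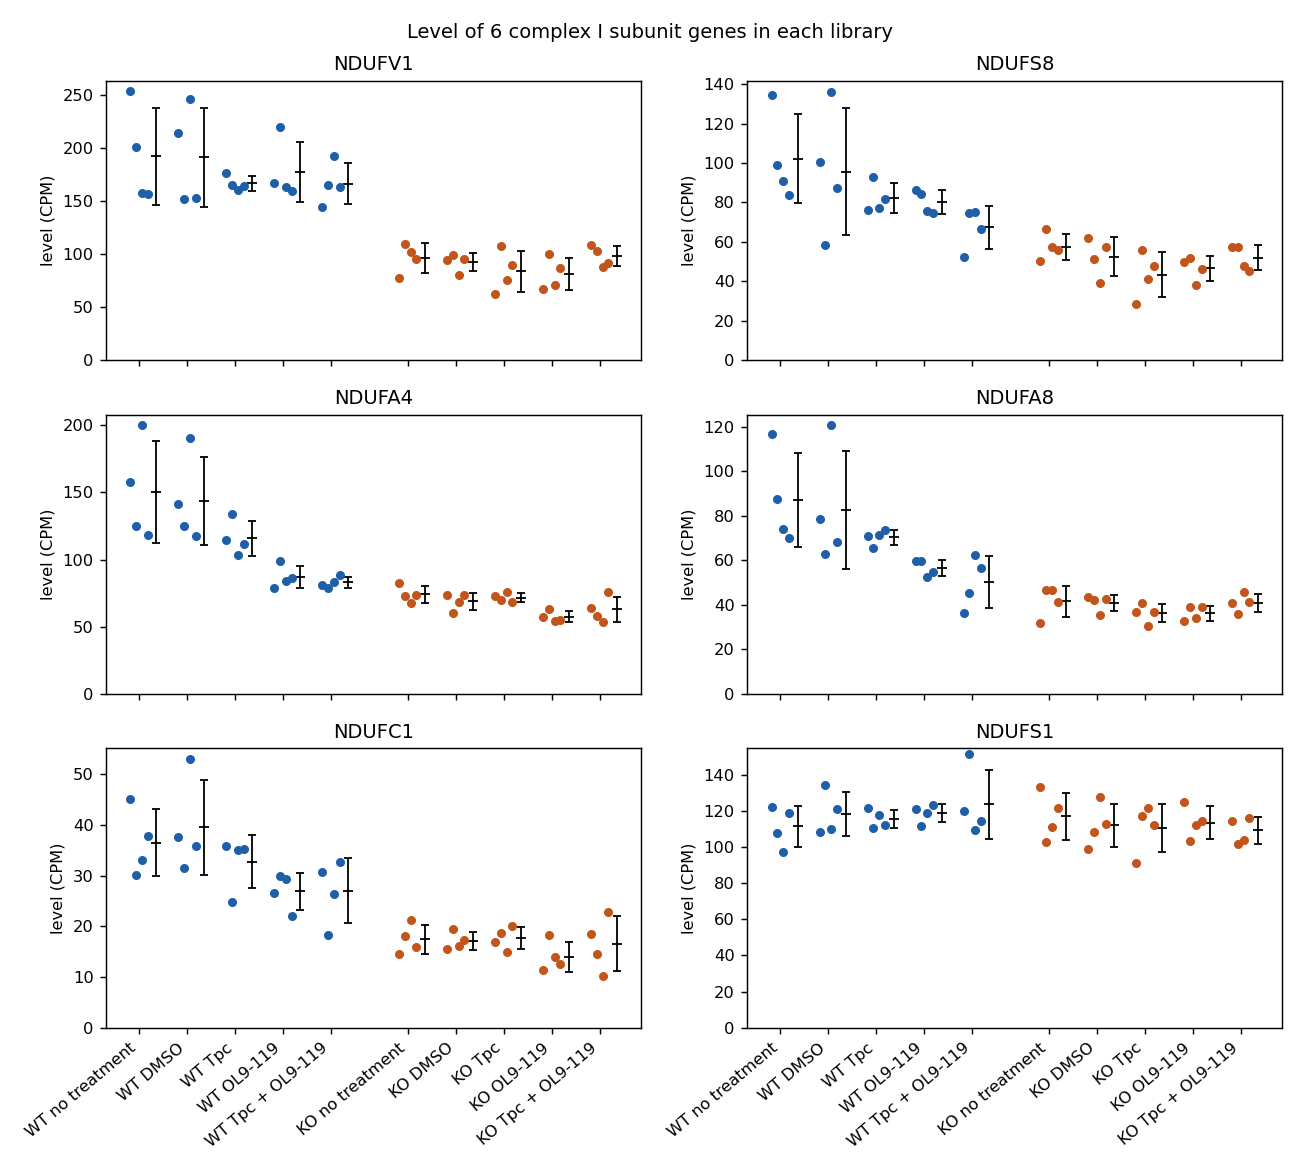
Level (CPM, linear axis from 0) of 6 subunit genes in each of the 4 libraries of the 10 groups, WT in blue and PARP1-KO in orange, with the group mean and SD in black. NDUFV1 of the clone stays at or below 110 CPM in every library and that of WT at or above 145 CPM, whereas the ranges of NDUFS1 overlap in all treatments.

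Of the 12, NDUFB8 had the largest change (log2 fold change -1.48 ± 0.38), from 18.8, 9.36, 24.8 and 11.6 CPM to 2.82, 5.97, 7.5 and 6.46 CPM, with the annotation overlap given above, and was called in 5 of the 8 fits that each left out 1 library. NDUFC2 fell by 1.21 on the log2 scale, with WT libraries at 66.1, 31.9, 83.1 and 37.7 CPM. NDUFB5 was the smallest call (-0.58 ± 0.17, adjusted p = 0.00925), its groups overlapped, and it was called in 2 of those 8 fits. Core subunits also stayed near 0: the log2 fold change of NDUFS1, the largest subunit of the NADH dehydrogenase core, was 0.07 (95% interval -0.16 to 0.30). NDUFS7 was at -0.04 (-0.42 to 0.35) and NDUFAB1 at -0.11 (-0.40 to 0.18). The 4 members above 0.5, NDUFA4L2, NDUFV2, NDUFA13 and NDUFA7, were the 4 of fewest counts, and none passed the threshold with edgeR; DESeq2 called NDUFV2 higher.

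Under DMSO, 11 members were lower and 0 higher (all genes lower 5.75%, higher 6.67%), with a median of -0.45. Of these, 9 were also among the 12 of untreated cells, and NDUFB4 and NDUFS5 were added. The steepest were NDUFC1 (-1.21 ± 0.21), NDUFS6 (-1.08 ± 0.20) and NDUFA4 (-1.06 ± 0.14). Without WT DMSO replicate 3 the count was 7 and without WT DMSO replicate 4 it was 17. Under Tpc, 7 were lower (NDUFA4, NDUFA8, NDUFC1, NDUFS3, NDUFS6, NDUFS8 and NDUFV1; all genes lower 4.34%), under OL9-119 5 (NDUFA4, NDUFA8, NDUFC1, NDUFS8 and NDUFV1; all genes lower 4.83%), and under Tpc with OL9-119 only NDUFV1 (all genes lower 3.71%). In these 3 treatments 0 members were higher, against 4.17%, 4.94% and 3.56% of all genes. The medians were -0.13, -0.17 and -0.03. Under the combination the 1 member called was 2.56% of the 39, near the share of all genes (3.71%).

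**Figure D2:**
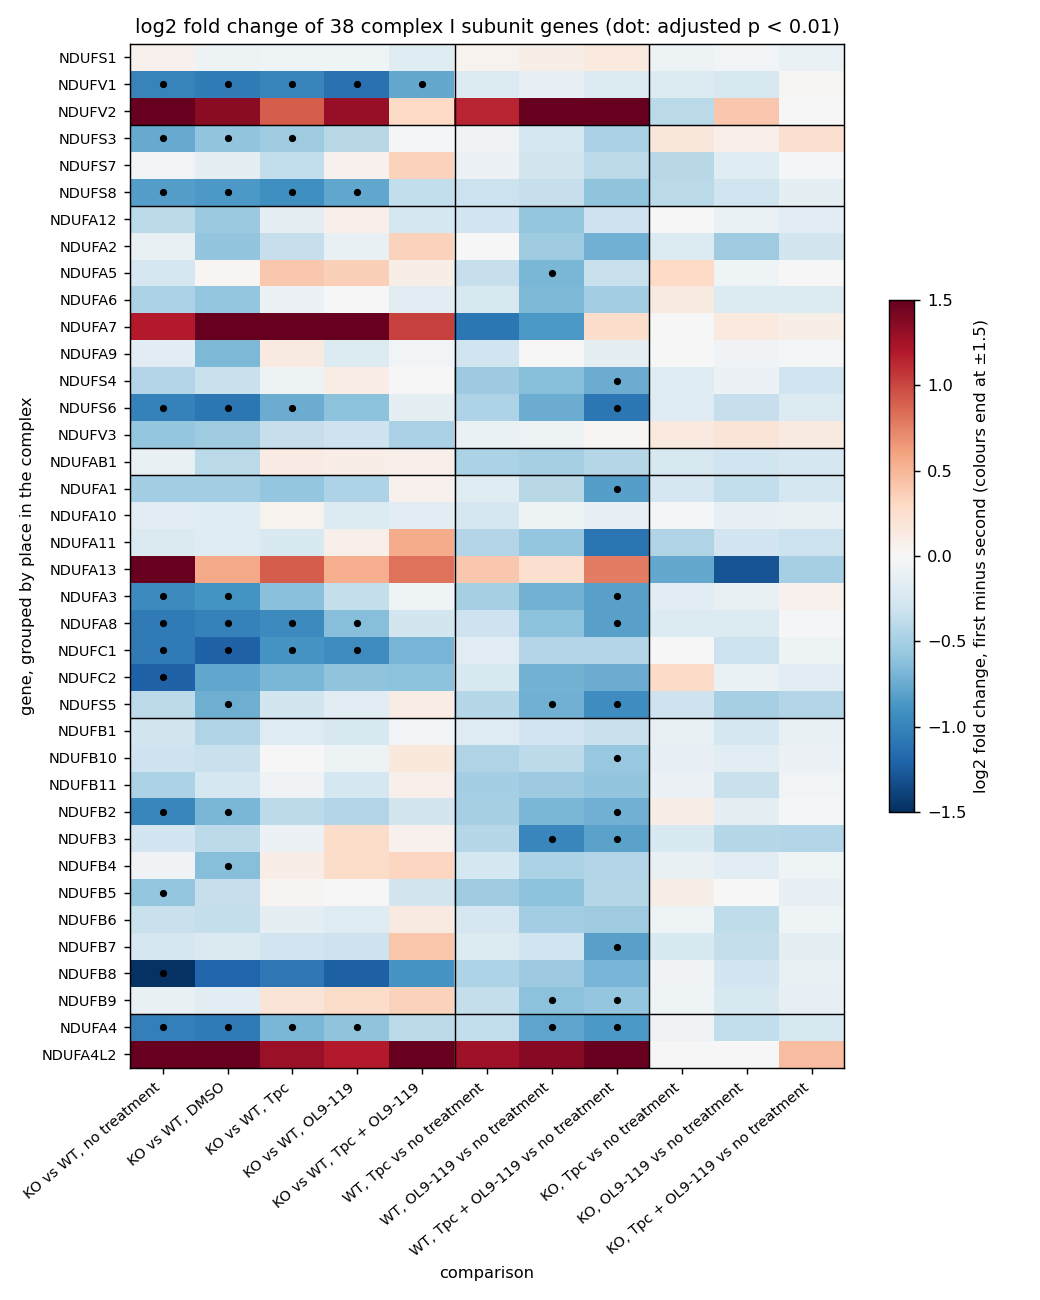
log2 fold change (colour, ending at ±1.5) of 38 subunit genes in 11 comparisons, ordered by place in the complex, with a dot where the edgeR adjusted p was below 0.01. Dots lie in the blue cells of the PARP1-KO against WT and the WT drug columns, and the 3 columns of treated PARP1-KO cells have none.

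Chromosome 11 holds NDUFV1, NDUFS8, NDUFS3 and NDUFC2, and all 4 were lower in untreated PARP1-KO cells. NDUFS8, a core subunit that carries iron-sulfur clusters, at chr11:68030617-68036644 (hg38), measured 135, 98.9, 91.1 and 83.9 CPM in WT and 50.2, 66.5, 57.3 and 56.1 CPM in the clone (log2 fold change -0.83 ± 0.17). NDUFS3 (chr11:47565336-47584562), also of the quinone core, measured 140, 116.7, 103.3 and 106.7 against 52.2, 80, 68.4 and 74.5 CPM (-0.76 ± 0.14). Genes of chromosome 11 as a whole were lower in the clone. Of 688 genes there with a mean of at least 50 counts, 40% were lower in untreated cells (median log2 fold change -0.51), against 11.4% of 11451 genes on other chromosomes (median 0.03). Of 68 genes other than members within 2 Mb of NDUFV1 (chr11:67605653-67612554), 60.3% were lower (median -0.75), a stretch that also holds NDUFS8. Around NDUFS3 it was 35.5% of 31 genes and around NDUFC2 29.4% of 17. Off chromosome 11, 8 of 35 members were lower, with a median of -0.29. The part of the chromosome in the 4 members' values was not tested.

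The summed level of the members was 2406 to 3608 CPM in the untreated WT libraries and 2028 to 2231 CPM in the untreated PARP1-KO libraries, which did not overlap. It varied more among WT libraries (1956 to 3943 CPM in 20) than among those of the clone (1696 to 2231 CPM in 20). The share of protein-coding counts on genes with a canonical transcript under 1 kb moved with it. This share was 6.87 to 13.1% in WT and 6.46 to 7.71% in PARP1-KO libraries, and its correlation with the log2 summed level was 0.99 over the 20 WT and 0.92 over the 20 PARP1-KO libraries (a description; the points share library depth, and most members are short and enter the share). The highest shares were in untreated WT replicates 1 and 3 (11.7 and 10.7%) and WT DMSO replicate 3 (13.1%). A cytosolic ribosomal protein list was taken by symbol (RPL, RPS or RPLP and then a digit). Its 100 genes also include some that are not ribosomal proteins, such as the S6 kinases (RPS6K symbols). Summed levels of this list were also high in those libraries (97112, 85833 and 105945 CPM). In untreated cells, however, its WT range (60878 to 97112 CPM) took in that of the clone (68583 to 74957 CPM).

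**Figure D3:**
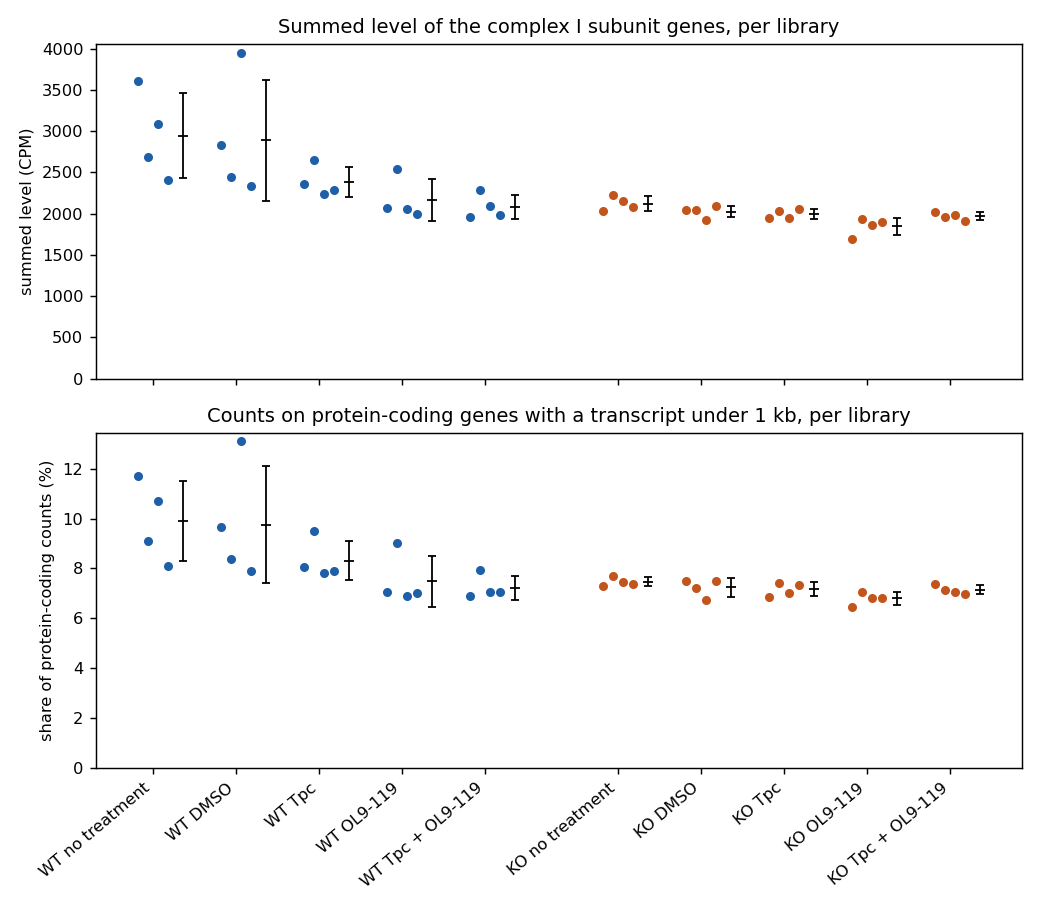
Upper panel, summed level of the members (CPM) in each library by group; lower panel, percent of protein-coding counts on genes whose canonical transcript is under 1 kb. Points are libraries (WT blue, PARP1-KO orange) and bars are the mean and SD of 4; both panels peak in WT DMSO replicate 3 (3943 CPM and 13.1%).

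With that share as a covariate, a fit chosen after the data were seen, 4 members were lower in untreated PARP1-KO cells: NDUFA4 (-0.67), NDUFA8 (-0.70), NDUFC1 (-0.86) and NDUFV1 (-0.62). Members enter the share, which was lower in the untreated clone (mean 7.46% against 9.9% in WT), so this fit can take up part of their own change. The same 4 were lower under DMSO, where 1 member (NDUFB11) was higher, and the members' median was -0.03 in untreated and -0.06 in DMSO cells. Without the 3 WT libraries named above, also chosen afterwards, 7 were lower in untreated cells (NDUFA4, NDUFA8, NDUFC1, NDUFS3, NDUFS6, NDUFS8 and NDUFV1) and the median was -0.15. With offsets for each gene's transcript length and GC content the count went the other way, to 17 lower with a median of -0.66, and the calls over all genes moved with it, from 1659 lower and 1727 higher to 2422 lower and 1008 higher, as did the median of all genes, from 0.17 to 0.00. NDUFA4, NDUFA8, NDUFC1 and NDUFV1 were lower in untreated cells in all of these fits.

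**Figure D4:**
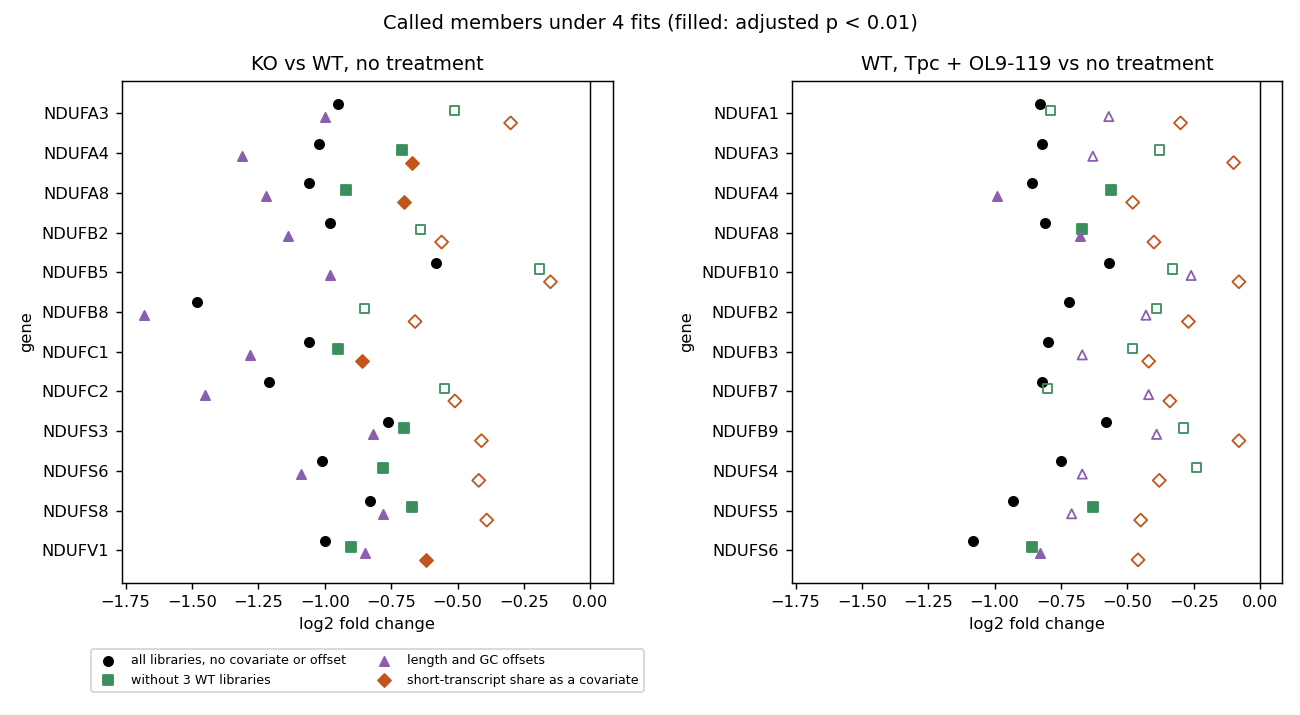
log2 fold change of the members called in untreated PARP1-KO against WT cells (left) and in WT cells under Tpc with OL9-119 (right) in 4 fits; filled symbols have an edgeR adjusted p below 0.01. On the left NDUFA4, NDUFA8, NDUFC1 and NDUFV1 are filled in every fit. On the right no member is filled when the short-transcript share, which most members enter, is a covariate.

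The next comparisons asked how the drugs changed these genes in WT cells. Under Tpc with OL9-119, 12 members were lower than without treatment and 0 were higher, where 2% of all genes were lower and 2.07% higher. The median was -0.51, against 0.00 over all genes. The 12 were NDUFS4 and NDUFS6 of the peripheral arm, NDUFA1, NDUFA3, NDUFA8 and NDUFS5 of the proximal and NDUFB2, NDUFB3, NDUFB7, NDUFB9 and NDUFB10 of the distal membrane arm, and NDUFA4. No nuclear core subunit was among them: NDUFV1 was at -0.21 (95% interval -0.51 to 0.09) and NDUFS1 at 0.15 (-0.08 to 0.38). The quinone core was not near 0 as a class, with a median of -0.44 and 3 of 4 genes below 0. Of the 11 distal accessory genes all were below 0, between -0.33 and -0.82.

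NDUFS6, a zinc-binding accessory subunit, had the largest change of the 12 called under the combination, -1.08 ± 0.20 on the log2 scale (adjusted p = 0.000136). It measured 214, 158, 190 and 141 CPM without treatment and 38.8, 111, 101.60 and 81.5 CPM with it, so that replicate 1 was far below the other treated libraries, and without that replicate the change was still called. NDUFS5, a membrane-arm subunit with an intermembrane-space fold, went from 142, 112, 163 and 95.5 CPM to 68.1, 66.8, 73.5 and 60.4 CPM (-0.93 ± 0.15, adjusted p = 1.28e-05). NDUFA4 went from the values above to 80.9, 79.2, 83.7 and 88.4 CPM (-0.86 ± 0.14, adjusted p = 1.26e-05), with no overlap. The smallest calls were NDUFB10 (-0.57 ± 0.13), NDUFB9 (-0.58 ± 0.14) and NDUFB2 (-0.72 ± 0.18), and in NDUFB9 and NDUFB2 the groups overlapped.

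Under OL9-119 alone, 5 members were lower in WT cells (all genes lower 0.833%) and 0 higher (all genes 0.449%), with a median of -0.52. They were NDUFB3 (-0.98 ± 0.20), NDUFA4 (-0.79 ± 0.14), NDUFS5 (-0.72 ± 0.15), NDUFA5 (-0.69 ± 0.14) and NDUFB9 (-0.62 ± 0.14). NDUFB3 went from 50.1, 27.3, 37.3 and 31.1 CPM to 16, 22.4, 18.6 and 17.1 CPM, without overlap. All but NDUFA5 were also lower under the combination, a comparison that shares its untreated libraries with this one. Under Tpc alone 0 members passed (all genes lower 0.304%, higher 0.553%), also with DESeq2. At an unadjusted p < 0.05, 13 of 39 members were lower and 0 higher, against 4499 of all 28922 genes in either direction. Below 0 were 34 of the 39 (median -0.29). DMSO alone gave 0 calls among members and among all genes. At an unadjusted p < 0.05, 0 members were lower and 1 higher, against 3116 of all genes in either direction. DESeq2 called 0 members, and over all genes 6 lower and 3 higher. Against Tpc alone, adding OL9-119 gave 0 calls by edgeR (all genes lower: 0.0622%) and by DESeq2, with a median of -0.22. There 9 members were lower and 0 higher at an unadjusted p < 0.05, against 3111 of all genes in either direction.

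The WT drug calls rested on the untreated libraries and on the spread estimated from all 10 groups. For the combination the count was 4 without untreated WT replicate 1 and also 4 without either replicate 1 or replicate 4 of the combination, and for OL9-119 it was 1 without untreated replicate 1, 3 without untreated replicate 3 or OL9-119 replicate 4, 8 without OL9-119 replicate 2, and 12 without untreated replicate 4. With the short-transcript share as a covariate 0 were called in either (medians -0.08 and -0.08, and -0.19 and -0.09 over all genes), without the 3 WT libraries 5 and 0, and in fits of the compared libraries alone 2 and 0. The share had a correlation of 0.99 with the members' log2 summed level in WT and fell with the drugs (mean 9.9% untreated, 7.22% and 7.48% treated). The covariate can therefore take up the members' own change, and its 0 calls cannot tell the 2 apart. Over all genes the calls lower went from 579 and 241 to 538 and 215 with the covariate, 235 and 45 without the 3 libraries, and 99 and 18 in the fits of the compared libraries alone. Against DMSO in place of no treatment, 10 and 6 members were lower, and 446 and 193 over all genes.

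Length went with the size of the change under the combination. Over the 35 members with more than a few counts, the correlation of log2 transcript length and log2 fold change was 0.64 under the combination and 0.47 under OL9-119 in WT cells, and 0.14 between genotypes in untreated cells (descriptions; the genes share the same libraries). Under the combination, the 23 members under 1 kb had a median of -0.70 and the 8 of 2 kb or longer of -0.23. Over all genes with a mean of at least 50 counts the medians were -0.45 (746 genes) and 0.06 (9341 genes). In untreated PARP1-KO cells the members' medians were -0.41 under 1 kb and -0.42 at 2 kb or longer, against -0.31 and 0.07 for all genes of those lengths. The part of length in these values was not tested beyond the fits above.

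In PARP1-KO cells 0 members were called under DMSO, Tpc, OL9-119, or Tpc with OL9-119, by edgeR or DESeq2, where 0%, 0.0138%, 0.00346% and 0% of all genes were lower. The 1 gene lower under OL9-119 was MT-ND5 (-1.63 ± 0.23, edgeR adjusted p = 4.43e-05), a mitochondrially encoded complex I gene that is not a member. At an unadjusted p < 0.05, 1, 3, 4 and 2 members were lower and 0, 1, 0 and 0 higher. Of all 28922 genes, 538, 1713, 931 and 1241 passed in either direction. The members' medians were -0.06, -0.09, -0.20 and -0.11. The lowest unadjusted p under OL9-119 was that of NDUFS5 (-0.50 ± 0.15), from 121.4, 94.3, 94 and 83.8 CPM in untreated cells, and NDUFA4 was at -0.37 ± 0.14. The difference between the lines was tested as an interaction, and 0 members were called for Tpc, OL9-119 or their combination (all genes called higher: 0.0173%, 0.0138% and 0.0692%), also with DESeq2. The medians of the difference, PARP1-KO minus WT, were 0.23, 0.23 and 0.38. At an unadjusted p < 0.05, 3, 7 and 11 members were higher and 0 lower, against 2142, 1968 and 3420 of all genes in either direction. The lowest adjusted p for the combination was that of NDUFS3 (0.72 ± 0.20, adjusted p = 0.0945), followed by NDUFA8 (0.78 ± 0.23, adjusted p = 0.134). Without the 3 WT libraries, which include 2 of the untreated ones, the medians were -0.06, 0.01 and 0.17.

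The other genes of the pathway were counted in the same way. Of the 7 MT-ND genes, the mitochondrially encoded core of the membrane arm, 5 were lower in untreated PARP1-KO cells and 0 higher, from MT-ND1 (-1.19 ± 0.14) to MT-ND4 (-0.63 ± 0.12), while MT-ND4L was at -0.16 and MT-ND5 at -0.50. Of the 21 assembly factors, which build the complex and do not stay in it, 4 were lower (TMEM126A, NDUFAF8, DMAC1 and TMEM126B) and 1 was higher (NDUFAF5), with a median of -0.08. In the same comparison 2 of 4 complex II, 3 of 10 complex III, 6 of 11 complex IV and 8 of 19 complex V subunits, and 18 of 78 mitochondrial ribosomal proteins, were lower (all genes 5.74%), and their medians were -0.35, -0.24, -0.53, -0.52 and -0.23. Of the cytosolic ribosomal protein list taken by symbol, S6 kinase genes included, 13 of 95 were lower and 3 higher (median -0.06). Under the combination in WT cells the counts were 0 of 4, 4 of 10, 4 of 11, 10 of 19 and 8 of 78, where 2% of all genes were lower (medians -0.24, -0.47, -0.59, -0.69 and -0.24), with 1 assembly factor lower (DMAC1), 1 higher (NDUFAF5) and 3 of 7 MT-ND genes lower. In each of the 2 comparisons 1 mitochondrial ribosomal protein was higher. That list, which was not chosen for mitochondria, had 31 of 95 lower and 0 higher under the combination, with a median of -0.47. The complex I members' median of -0.51 lay among those of the other respiratory complexes and near that of the cytosolic ribosomal protein list. No difference between the lists was tested.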

How the data were processed

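RNA-seq of 40 HEK293A libraries was deposited by the authors as raw counts per Ensembl gene (Ensembl 93, hg38), with STAR 2.7.8 named as the aligner and FastQC 0.11.9 and Picard 2.26.6 in the submitters' processing notes. The strand column counted is not given in the sources used here. From these counts, genes with a sum of at least 10 were kept (28922), TMM factors were computed, and the edgeR 4.0.16 quasi-likelihood test (R 4.3.3) was fitted over all 10 groups with 18 contrasts and Benjamini-Hochberg adjustment over all genes, with calls at adjusted p < 0.01. Standard errors are the log2 fold change divided by the square root of F, and 95% intervals use a normal quantile. DESeq2 1.42.0 and the other settings are alternatives. Positions, transcript lengths and overlaps come from GENCODE 44 (hg38), and promoters from RefSeq. The members and lists were chosen with earlier results of these data known. The genes named are the nuclear core subunits, the members on chromosome 11, NDUFA4, NDUFA4L2, NDUFC2-KCTD14, NDUFAB1, the 3 largest and 3 smallest changes called per comparison, and the highest and lowest member of each class. Other members are named to make up a count and were chosen after their values were seen. Scripts were tested on simulated counts. No protein sequence was used here. Values of 1 item are not reported here.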

Additional observations from a re-analysis of the deposited data

Results flagged for a closer look

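Within groups of 4, a library was noted when its gap to the nearest other library exceeded Dixon's 95% critical value as a share of the group's range. The summed level and 10 members were examined in 110 groups, of which 9 were noted; chance alone gives about 1 in 20. In WT cells under OL9-119, replicate 2 stood above the others in the summed level (2540 CPM against 1992 to 2071), NDUFB2 (48.3 CPM against 32.3 to 32.7) and NDUFV1 (220 CPM against 160 to 167). In WT cells under DMSO, replicate 3 stood above the others in NDUFA3 (86.2 CPM against 33 to 38) and NDUFS5 (193 CPM against 105 to 119). In WT cells under Tpc, replicate 2 was high in NDUFS5 (114.02 CPM against 87.3 to 90.9) and low in NDUFC1 (24.9 CPM against 35 to 35.8). In PARP1-KO cells under DMSO, replicate 3 was low in NDUFA8 (35.6 CPM against 42.3 to 43.5) and NDUFS5 (73.8 CPM against 80.7 to 82).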

How the results depend on the processing

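The counts of members called moved by over 1.5 times as follows, in the order PARP1-KO against WT without treatment, DMSO, Tpc, OL9-119 and the combination, then WT OL9-119 and WT combination. A log2 fold change of at least 1 gave 6, 5, 0, 1, 0, 0 and 1. The short-transcript share gave 4 and 5 (no treatment, DMSO), 4 (combination), 0 and 0 in WT, and leaving out the 3 WT libraries gave 7, 8 (OL9-119) and 4 (combination), 0 and 5 in WT, and 1 for WT combination against Tpc. Fits of the compared libraries alone gave 5 (DMSO), 11 (Tpc), 8 (OL9-119), 0 and 2 in WT, and 1 for OL9-119 in PARP1-KO cells. Length and GC offsets gave 24 (DMSO), 4 (combination) and 4 (WT combination), and in untreated cells 17. An adjusted p < 0.05 gave 19 (DMSO), 8 (OL9-119), 3 (combination) and 13 (WT OL9-119). No filter gave 13 (WT OL9-119) and 1 each for WT Tpc, WT combination against Tpc and the interaction of the combination, DMSO as comparator gave 1 for WT Tpc and 1 for that interaction, and DESeq2 gave 2 (combination). The cause of these moves was not tested. Fits of the compared libraries alone have fewer residual degrees of freedom, and they gave fewer calls in some comparisons and more in others. Leaving out 1 library gave 10 to 13, 7 to 17, 5 to 7, 4 to 5, 1 to 2, 1 to 12 and 4 to 14, 0 in all other comparisons, and -4.63 to -4.49 for the log2 fold change of PARP1.

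Replicate numbers did not pair the samples (mean correlation of deviations between same-numbered libraries 0.0988 within WT, 0.158 within PARP1-KO and 0.00286 between them, lowest -0.599). With the replicate number as a block the counts of the 7 comparisons were 12, 11, 7, 5, 1, 6 and 12, and all 53 member calls were kept. None of the 53 changed direction in any alternative run. The shallowest library (3455043 counts) was WT combination replicate 4, and without it 4 members were called in that comparison.

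Over all genes, the counts in untreated PARP1-KO against WT cells were 1659 lower and 1727 higher, 1430 and 1234 with the share as a covariate, and under DMSO 1662 and 1930 against 2891 and 1083 with the offsets.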
